A study of Homo sapiens with 9 samples.

Results

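Mucins are large glycoproteins whose central stretches are built of repeats rich in serine and threonine and carry dense O-linked sugars. Gel-forming mucins such as MUC2, MUC5AC and MUC5B are secreted and link into the polymers of mucus, whereas transmembrane mucins such as MUC1, MUC4, MUC12, MUC13, MUC17 and MUC20 stay at the cell surface. In the healthy colon MUC2 is the main gel-forming mucin and is made by goblet cells. MUC5AC is typical of the stomach surface and the airways, and MUC5B of airways and salivary glands. The 9 genes named here were taken by symbol from the count tables of all 9 libraries, where each had a row, out of 58920 genes listed. They were measured in LIM1215 cells, an established human colorectal cancer line that responds to cetuximab, an antibody against the EGF receptor.

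The groups were LIM1215-parental and the resistant lines LIM1215-R1 (R1) and LIM1215-R2 (R2), with 3 libraries each. Both resistant lines were selected independently of each other in rising concentrations of cetuximab, while the parental cells were kept in culture without it. The resistant lines are mixed populations and not single clones, and all cells were cultured without treatment for the sequencing. Poly(A) RNA was sequenced with strand kept, and the values are counts of reads per gene. Each library held between 13737416 and 18725014 counts, so that 3 counts in a library stand for 0.158 to 0.217 CPM, which are counts scaled to the size of the library. The study describes the 3 libraries of a line as technical replicates. P-values therefore measure the spread between these libraries only, and a difference between cultures cannot be told apart from a difference between lines.

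Of the 12 colonic epithelial markers looked at, 11 were tested, led by the keratin KRT8 at 5716 to 7882 CPM in the line means, while KRT20 had 0 counts in all 9 libraries. Of the 7 leukocyte markers, PTPRC and CD3E had 0 counts throughout, and the list summed to between 7.32 and 14.8 CPM in a library. Most of this was CD68, at 8.29, 13.4 and 9.79 CPM in parental cells, R1 and R2. Of the 3 tested, 1 was higher at any size in R1 and 1 was called lower in R2, against 14% and 2.19% of all genes. Of the 7 fibroblast markers, COL1A2 and THY1 had 0 counts, and the list summed to between 1.19 and 3.19 CPM in a library. In RNA from whole cultures, fewer cells that make a mucin and less mucin RNA per cell cannot be told apart.

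The repeats bear on how mucin reads can be counted, since reads that match several places are normally left out by the counting program. For each gene the most frequent 24-base word of its exons was found in the hg38 sequence with the GENCODE release 44 annotation. The following 120-base windows start 24 bases before a copy of that word in 6 genes, with every copy in capitals, read 5′ to 3′ on the strand of the gene. They show how closely the units of MUC2 and MUC4 follow one another.
MUC2: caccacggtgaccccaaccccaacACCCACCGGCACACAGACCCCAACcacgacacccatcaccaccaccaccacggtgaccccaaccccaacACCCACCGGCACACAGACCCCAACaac
MUC5AC: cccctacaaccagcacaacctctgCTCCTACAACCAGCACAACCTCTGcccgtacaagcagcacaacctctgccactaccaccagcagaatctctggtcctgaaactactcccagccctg
MUC5B: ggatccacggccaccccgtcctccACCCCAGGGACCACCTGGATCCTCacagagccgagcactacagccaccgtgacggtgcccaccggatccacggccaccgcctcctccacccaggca
MUC12: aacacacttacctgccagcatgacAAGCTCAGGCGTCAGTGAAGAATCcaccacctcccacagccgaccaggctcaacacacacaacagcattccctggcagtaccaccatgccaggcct
MUC4: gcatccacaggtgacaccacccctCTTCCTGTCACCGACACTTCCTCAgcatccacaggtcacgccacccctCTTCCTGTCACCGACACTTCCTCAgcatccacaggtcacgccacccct
MUC13: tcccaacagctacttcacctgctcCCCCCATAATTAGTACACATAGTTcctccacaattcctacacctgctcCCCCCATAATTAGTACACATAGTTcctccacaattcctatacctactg

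The windows lie within exons, at chr11:1095817-1095936 and chr11:1185221-1185340 and chr11:1244228-1244347 on the plus strand, at chr7:100992078-100992197 on the plus strand, and at chr3:195778908-195779027 and chr3:124927739-124927858 on the minus strand. The word occurred 43 times in the exons of MUC2, 40 times in MUC4, 23 times in MUC17, 16 times in MUC5AC and 12 times in MUC20. It occurred 9 times in MUC12 and 6 times in MUC5B, but only 2 times each in MUC1 and MUC13, which have short exon sequences of 2401 and 3499 bases. The exons of the other members added up to between 6837 bases in MUC20 and 21021 bases in MUC4. All these copies and lengths are those of the reference sequence, and the length of the repeats in LIM1215 cells was not measured.

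Uniqueness was measured as the share of 50-base exon words that occur more than once on the chromosomes. It was 62.5% in MUC12, 32.4% in MUC5B, 29% in MUC20, 27.9% in MUC4, 26.1% in MUC2 and 25.2% in MUC5AC. It was 8.69% in MUC17, 2.59% in MUC1 and 0% in MUC13. For the gel-forming genes nearly all of this was repetition within the gene itself. Only 0.405% of the 50-base words of MUC5AC and 0.375% of those of MUC5B occurred elsewhere on the chromosomes, and none of those of MUC2 did. With words of 100 bases the share was still 52.5% in MUC12, 23.9% in MUC5B, 21.2% in MUC2 and 14.1% in MUC5AC. The words were taken within exons, without those that cross a splice junction. Neither the read length nor the setting for repeated matches is given in the sources used here.

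The full hg38 sequence also holds 430 sequences outside the chromosomes and the mitochondrial genome, 261 of them alternate versions of chromosome regions. All 50-base and 100-base exon words of MUC4 and MUC20 also occurred on these other sequences. The same was true of 67.9% of the 50-base words of MUC2, and of 0% of those of the other 6 members. Whether the authors' genome index held the other sequences is not given in the sources used here. Across protein-coding genes, 508 had at least 95% of their 100-base words on such sequences, and of these 22.4% reached 10 counts over the 9 libraries, with a median of 0 counts. Of 18268 genes with under 5% of such words, 69.4% reached 10 counts, with a median of 1304. These sets of genes were not matched for expression, and whether reads were lost to the other sequences was not tested.

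**Figure D1:**
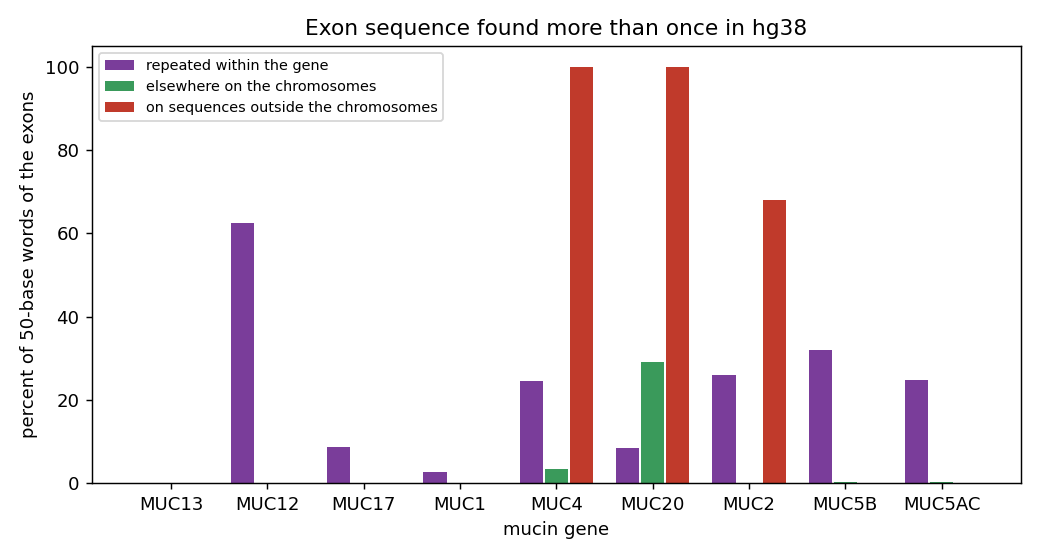
Bars give the percentage of 50-base exon words of each mucin gene that are repeated within the gene, that occur elsewhere on the hg38 chromosomes, or that occur on hg38 sequences outside the chromosomes. MUC12 stands highest for repeats within the gene at 62.5%, and MUC4 and MUC20 reach 100% outside the chromosomes.

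A gene was called when its adjusted p was at most 0.01 and its log2 fold change at least 1.5 in size, and it differed at any size when only the first condition held. Of the 9 mucin genes 7 had at least 10 counts over the 9 libraries and were tested, and MUC4 and MUC20 were not. Adjusted p-values are those of edgeR's quasi-likelihood fit, with the Benjamini-Hochberg method over 19102 genes.

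In R2 against parental cells, MUC5AC and MUC5B were called higher and no member was called lower by edgeR or DESeq2. Of all genes tested 4.82% were called, 2.63% higher and 2.19% lower. At any size MUC12 and MUC13 were lower as well, so that 4 of the 7 differed, against 23.8% of all genes (12.3% higher, 11.6% lower), and 5 had an unadjusted p under 0.05. In R1 against parental cells no member was called by edgeR or by DESeq2, where 5.14% of all genes were called (3.24% higher, 1.91% lower), although 5 members had an unadjusted p under 0.05. The same 5 differed at any size, against 27.3% of all genes. MUC1, MUC2 and MUC5B were higher (14% of all genes) and MUC12 and MUC13 lower (13.4% of all genes). Between the resistant lines MUC5AC alone was called, higher in R2, where 0.764% of all genes were called (0.215% higher, 0.55% lower). At any size MUC5AC and MUC5B were higher in R2 than in R1 (3.39% of all genes) and MUC1 and MUC13 lower (3.77% of all genes), together 4 of 7 members against 7.16% of all genes. Both comparisons with parental cells share the same 3 parental libraries.

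**Figure D2:**
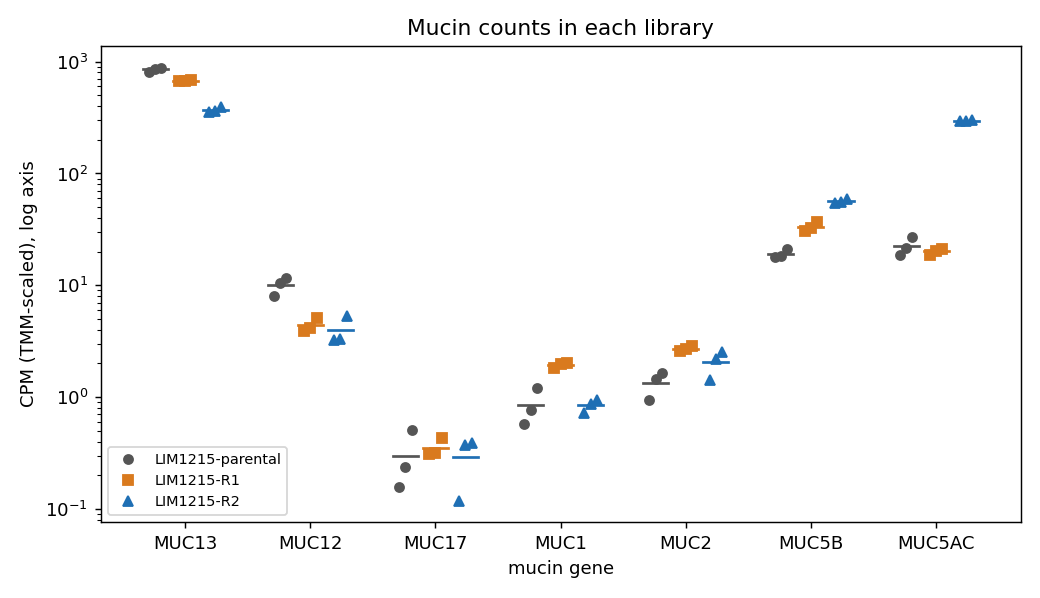
Points show the CPM of the 7 tested mucin genes in each of the 9 libraries on a log axis, with a short line at the mean of each group of 3. MUC5AC lies between 294.0 and 298.3 CPM in the R2 libraries and between 18.6 and 26.8 CPM in the other 6.

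MUC5AC lies on the plus strand at chr11:1157953-1201138, in the cluster of gel-forming mucin genes on 11p15, and its product is the chief secreted mucin of the stomach surface. Its level was 18.6, 26.8 and 21.4 CPM in the 3 parental libraries, 18.6, 21.3 and 20.4 CPM in those of R1, and 294.9, 294.0 and 298.3 CPM in those of R2. All 3 libraries of R2 stood far above the other 6, and the ranges of parental and R1 libraries overlapped. The means were 22.3 ± 4.18, 20.1 ± 1.34 and 295.7 ± 2.23 CPM (SD, n = 3). MUC5AC was 13.4-fold higher in R2 than in parental cells (log2 3.74, SE 0.0774, edgeR adjusted p = 3.21e-23). Between the resistant lines the log2 fold change was 3.88 (SE 0.0785, edgeR adjusted p = 7.45e-23), which placed MUC5AC 33rd from the top of the 19102 genes tested. In R1 against parental cells it was -0.13, with a 95% interval from -0.32 to 0.056 (edgeR adjusted p = 0.288).

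MUC5B, which follows MUC5AC on the same strand at chr11:1223066-1262172, encodes a gel-forming mucin of airway and salivary mucus. The parental libraries gave 18.5, 21.3 and 17.8 CPM, the R1 libraries 32.6, 36.6 and 30.7 CPM, and the R2 libraries 59.0, 54.4 and 55.8 CPM. The 3 lines did not overlap and stood in the order parental, R1, R2. MUC5B was 1.75-fold higher in R1 than in parental cells (log2 0.80, edgeR adjusted p = 1.27e-08) and 2.96-fold higher in R2 (log2 1.56, SE 0.0808, edgeR adjusted p = 6.78e-15). It was also higher in R2 than in R1 by a log2 fold change of 0.76 (edgeR adjusted p = 3.78e-08). The change in R2 lies close to the threshold of 1.5.

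MUC2, the main gel-forming mucin of the colon, lies upstream of both at chr11:1074874-1110508. It had 16, 20 and 31 counts in the parental libraries, 44, 46 and 41 in those of R1, and 37, 41 and 22 in those of R2, or 1.34 ± 0.354, 2.72 ± 0.161 and 2.06 ± 0.565 CPM (SD, n = 3). The libraries of R1 were all above the parental ones, while those of R2 overlapped with the parental ones. The highest of R2, at 2.54 CPM, lay just below the lowest of R1, at 2.57 CPM. R2 against R1 gave a log2 fold change of -0.39, with a 95% interval from -0.87 to 0.088 (edgeR adjusted p = 0.322). MUC2 was 2.02-fold higher in R1 than in parental cells (log2 1.01, 95% interval 0.50 to 1.53, edgeR adjusted p = 0.00201). That difference at any size was lost without parental replicate 1, where the log2 fold change was 0.81 (edgeR adjusted p = 0.0207). In R2 the log2 fold change was 0.62, with an interval from 0.081 to 1.16 (edgeR adjusted p = 0.0737). The MUC2 counts come from a gene of which 67.9% of the 50-base words also occur on the other hg38 sequences, as given above.

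MUC13 is a transmembrane mucin of the intestinal surface, encoded on the minus strand at chr3:124905442-124934751. The parental libraries gave 864, 884 and 814 CPM, those of R1 gave 665, 684 and 676 CPM, and those of R2 gave 352.8, 391.8 and 362.8 CPM. The 3 lines were separate, with parental cells highest and R2 lowest. MUC13 fell by 0.34 on the log2 scale in R1 against parental cells (edgeR adjusted p = 2.48e-07) and by 1.21 in R2 (edgeR adjusted p = 1.89e-18). From R1 to R2 the log2 fold change was -0.87 (edgeR adjusted p = 5.72e-14). With 5556 to 15509 counts in each library and no repeated 50-base word, MUC13 had the deepest counts of the 9 genes.

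MUC12, a transmembrane mucin whose gene lies on the plus strand at chr7:100969565-101018936, gave 8.02, 11.7 and 10.5 CPM in the parental libraries. It gave 3.93, 5.08 and 4.19 CPM in R1 and 3.33, 3.22 and 5.29 CPM in R2. Both resistant lines lay below all parental libraries and overlapped with each other. MUC12 was 2.28-fold lower in R1 (log2 -1.19, edgeR adjusted p = 2.46e-06) and 2.55-fold lower in R2 (log2 -1.35, edgeR adjusted p = 4.21e-07) than in parental cells. Between the resistant lines the log2 fold change was -0.16, with a 95% interval from -0.57 to 0.24 (edgeR adjusted p = 0.676). An antisense gene, MUC12-AS1, overlaps it and had 39 counts over the 9 libraries, with log2 fold changes of -0.27 and 1.08 against parental cells (edgeR adjusted p = 0.835 and 0.231).

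MUC1, a transmembrane mucin of most secretory epithelia, lies on the minus strand at chr1:155185824-155192915. It had few counts, with 13, 8 and 23 in the parental libraries, 32, 32 and 29 in those of R1, and 16, 14 and 11 in those of R2. R1 stood above the other lines, which overlapped. MUC1 was 2.19-fold higher in R1 than in parental cells (log2 1.13, SE 0.290, edgeR adjusted p = 0.00272) and 2.26-fold lower in R2 than in R1 (log2 -1.18, edgeR adjusted p = 0.00711). The first of these missed the threshold without parental replicate 1 (edgeR adjusted p = 0.0155) or replicate 2 (0.0156). The second missed it without any 1 of the 6 resistant libraries (edgeR adjusted p = 0.0161 to 0.0322). In R2 against parental cells the log2 fold change was -0.04, with a 95% interval from -0.73 to 0.64 (edgeR adjusted p = 0.945).

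MUC17, the neighbour of MUC12 at chr7:101020081-101058859, encodes a membrane mucin of enterocytes and had 2 to 7 counts in each library. The means were 0.300 ± 0.183 CPM in parental cells, 0.352 ± 0.0670 CPM in R1 and 0.294 ± 0.152 CPM in R2 (SD, n = 3), with all 3 lines overlapping. Its log2 fold changes against parental cells were 0.30 and 0.03 (edgeR adjusted p = 0.761 and 0.985), and no difference was detectable at this depth. MUC4, at chr3:195746771-195811929, had 1 count in all 9 libraries together, and MUC20, at chr3:195720978-195733551, had 4. Both are membrane mucins of 3q29 and were the 2 members with all exon words on the other hg38 sequences. Their counts are therefore not read as levels of RNA, and no fold change is given for either.

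**Figure D3:**
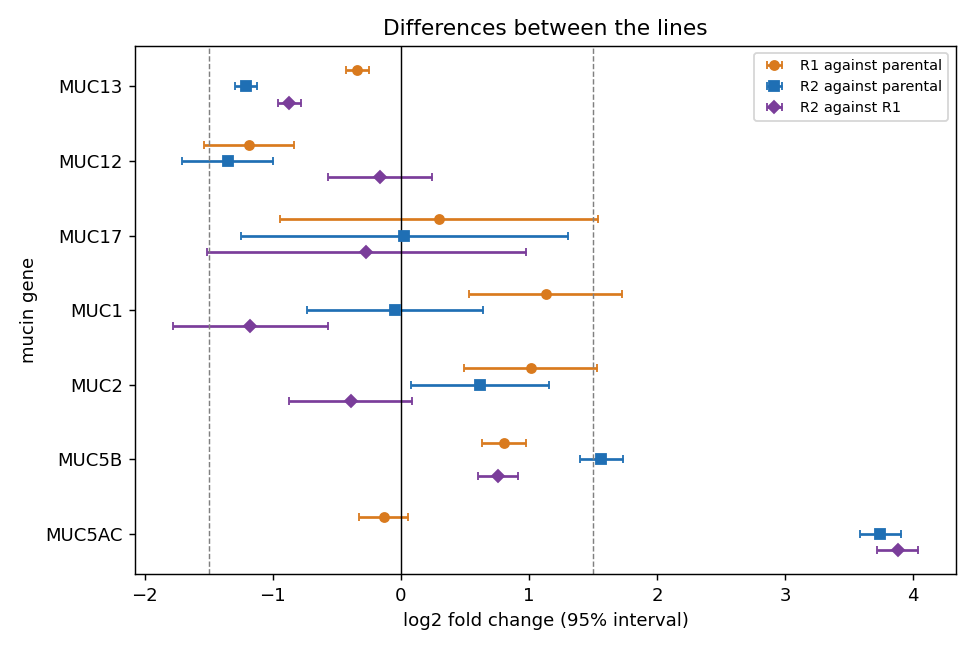
Points show the log2 fold change of each of the 7 tested mucin genes in the 3 comparisons between lines, with bars for the 95% interval and dashed lines at 1.5 in either direction. MUC5AC lies at 3.74 and 3.88 in the comparisons that include R2, and the intervals of MUC1, MUC2 and MUC17 are wide.

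Levels of different genes were compared per kilobase of exon sequence (CPM per kb). The order and the shares below cover members only. MUC3A, a membrane mucin outside the 9 genes, had 283, 192 and 157 CPM in parental cells, R1 and R2, over 11396 bases of exons. MUC13 led in every line, with 244.2 ± 10.3 CPM per kb in parental cells, 192.9 ± 2.63 in R1 and 105.5 ± 5.79 in R2 (SD, n = 3). In parental cells MUC5AC at 1.28 ± 0.239 and MUC5B at 1.03 ± 0.101 CPM per kb came next and their ranges overlapped. In R1 MUC5B at 1.79 ± 0.165 CPM per kb came before MUC5AC at 1.15 ± 0.0767, without overlap. In R2 MUC5AC at 16.9 ± 0.128 CPM per kb stood second, above MUC5B at 3.03 ± 0.127, again without overlap. Below these, MUC12 preceded MUC1 in parental cells with overlapping ranges. MUC1 preceded MUC12 in both resistant lines, without overlap in R1 and with overlap in R2. This order depends on the length used, since 62.5% of the 50-base words of MUC12 are repeated. Per kb of exon sequence with unique 50-base words, MUC12 was at 1.56 CPM in parental cells, 0.683 in R1 and 0.613 in R2, and MUC1 at 0.364, 0.824 and 0.362. MUC12 then came before MUC1 in R2, and before MUC5B, at 1.53, in parental cells. With 100-base words MUC12 was at 0.483 and MUC1 at 0.352 in R2, the same turn, while in parental cells MUC12 at 1.23 stayed below MUC5B at 1.35. By full exon length MUC2 was sixth in each line, at 0.106 ± 0.0280, 0.214 ± 0.0127 and 0.163 ± 0.0446 CPM per kb. Its range overlapped with that of MUC12 in R2. Of the 10336 50-base words of MUC2, only 2328 occur once in the full hg38 sequence with its other sequences. The place of MUC2 on that length was not computed, so its rank depends on whether those sequences were in the index. MUC17 was below MUC2 in each line without overlap. MUC20 and MUC4, whose counts are not read as levels, were given no place in the order.

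The level summed over the 9 genes was 247.5 ± 10.3 CPM per kb in parental cells, 197.2 ± 2.85 in R1 and 126.3 ± 5.63 in R2 (SD, n = 3). The gel-forming genes made up 0.973% ± 0.118 of that sum in parental cells, 1.60% ± 0.0953 in R1 and 16.0% ± 0.812 in R2. MUC13 made up 98.6%, 97.8% and 83.5% of it, and MUC5AC alone 13.4% in R2. These shares are of the reads that were counted, and 25.2% of the 50-base words of MUC5AC but none of those of MUC13 are repeated.

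**Figure D4:**
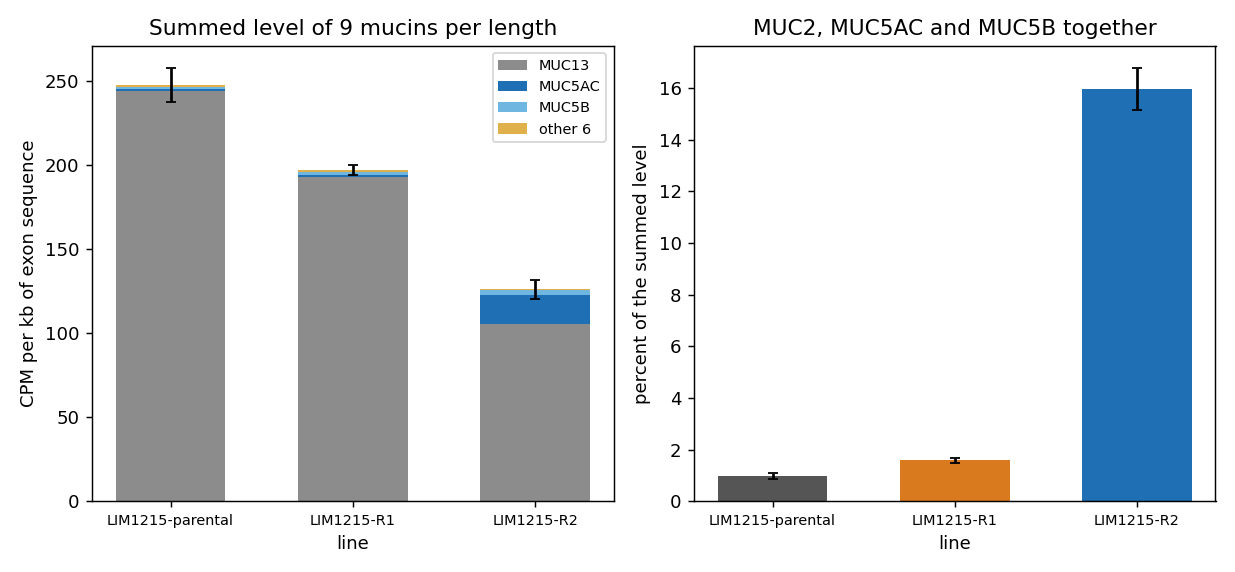
On the left, stacked bars give the mean level of MUC13, MUC5AC, MUC5B and the other 6 members in CPM per kb of exon sequence, with the SD of the sum over 3 libraries. On the right, bars give the mean percentage of that sum held by MUC2, MUC5AC and MUC5B together, with its SD, which is 16.0% in R2.

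Promoters were looked at for the 2 genes that were lower in both resistant lines, MUC12 and MUC13. The sequences are the 250 bases before the start of the gene from RefSeq on GRCh38.p14, in which 6 of the 9 members had an entry: MUC1, MUC2, MUC4, MUC12, MUC13 and MUC17. The motifs searched on either strand were TATAAA (the TATA box), then GGGCGG (the GC box), then CAGCTG (an E-box), then TTTATG (a CDX motif) and then TGTTTAC (a forkhead motif), and matches are in capitals.
MUC12: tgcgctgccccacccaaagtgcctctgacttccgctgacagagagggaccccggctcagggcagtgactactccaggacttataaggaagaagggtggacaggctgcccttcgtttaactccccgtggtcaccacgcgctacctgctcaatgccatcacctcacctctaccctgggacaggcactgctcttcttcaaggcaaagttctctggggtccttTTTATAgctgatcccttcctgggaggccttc
MUC13: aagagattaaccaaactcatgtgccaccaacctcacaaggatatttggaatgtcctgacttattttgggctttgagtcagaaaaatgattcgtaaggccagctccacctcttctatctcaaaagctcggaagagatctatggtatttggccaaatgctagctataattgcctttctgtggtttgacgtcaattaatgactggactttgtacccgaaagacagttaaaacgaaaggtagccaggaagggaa

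The first lies at chr7:100969315-100969564 on the plus strand and the second at chr3:124934752-124935001 on the minus strand. MUC12 has a TATAAA read on the opposite strand, which starts 31 bases before the start of the gene, and none of the other 4 motifs. MUC13 has none of the 5. Of 35116 RefSeq promoters of the same length, 10.7% hold TATAAA, 42.6% GGGCGG, 14.0% CAGCTG, 9.64% TTTATG and 2.98% TGTTTAC. 

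Among 14 other genes with mucin names or mucin-like products, 6 were tested, and their median log2 fold change was 0.04 in R1 and 0.32 in R2, beside -0.0106 and -0.00369 over all genes tested. MUC6, a gel-forming mucin of stomach glands encoded next to MUC2 at chr11:1012823-1036718, was called higher in both lines. It had 0 counts in the 3 parental libraries, 17 in those of R1 and 66 in those of R2. Against a floor of 3 counts over the parental libraries it was at least 5.86-fold higher in R1 and at least 22.7-fold higher in R2 (edgeR adjusted p = 0.000412 and 1.25e-07). Between the resistant lines its log2 fold change was 1.93 (edgeR adjusted p = 0.00237). Of its 50-base words 99.0% also occur on the other hg38 sequences, and the part this plays in its counts was not tested. MUC3A, a membrane mucin beside MUC12, was lower in both lines, with log2 fold changes of -0.56 and -0.84, as MUC12 was. CD164, a sialomucin of many cells and the most counted of the 14, differed from parental cells by 0.01 and 0.10 on the log2 scale (edgeR adjusted p = 0.929 and 0.117).

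The genes beside the mucin clusters were taken as the 5 nearest protein-coding genes on each side. On 11p15, 9 of 10 were tested and 1 was called, the kinase gene BRSK2, with 4 counts in the parental libraries, 123 in those of R1 and 93 in those of R2. Its log2 fold changes were 4.86 and 4.45 (edgeR adjusted p = 1.77e-09 and 2.35e-08), and -0.40 between the resistant lines (edgeR adjusted p = 0.354), where MUC5AC differed by 3.88. TOLLIP, the gene that follows MUC5B, had log2 fold changes of 0.19 and 0.21 against parental cells (edgeR adjusted p = 0.0422 and 0.0213). On 7q22, ACHE, acetylcholinesterase, was called lower in R2 (log2 -1.84). On 3q29, the apolipoprotein gene APOD was called lower in both lines (log2 -3.38 and -1.67). APOD had 47 counts in the parental libraries, 4 in those of R1 and 14 in those of R2. Within the span of MUC5B, the antisense gene MUC5B-AS1 had 2 counts and MIR6744 had 0 in all 9 libraries, as had RN7SKP54 within MUC17.

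Patterns most like those of MUC5AC, MUC5B and MUC12, the members with the widest range between lines, were sought by the root mean square difference of log2 CPM centred on each gene's mean over the 9 libraries. Nearest to MUC5AC were CDH13, DMRTA1 and LOC101448202, at 0.556, 0.681 and 0.696, where the median over all genes was 1.82. CDH13, a cadherin, had 0.321, 0.559 and 4.56 CPM in parental cells, R1 and R2. DMRTA1 had 0.0175, 0.0626 and 0.912 CPM, and LOC101448202 had 0.0241, 0.125 and 1.14 CPM. The means of DMRTA1 and LOC101448202 in parental cells and R1 lie under the level of 3 counts, so their likeness rests on few counts. Nearest to MUC5B were SOD3, LOC124905223 and PON2, at 0.0984, 0.102 and 0.128, where the median was 0.700. PON2, a paraoxonase, had 133, 228 and 354 CPM in parental cells, R1 and R2. Nearest to MUC12 were MTMR11, SNORC and SUMO2P3, at 0.196, 0.197 and 0.206, where the median was 0.690. SUMO2P3 had only 0.435, 0.125 and 0.0840 CPM in parental cells, R1 and R2. The 9 points of each gene come from 3 lines, and the measure is a description.

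Polypeptide GalNAc-transferases add the first sugar to mucin repeats, and 12 of 20 were tested. At any size 4 were higher and 1 lower in R1, and 2 were higher and 1 lower in R2, with list medians of 0.06 and 0.00. These are 5 and 3 of the 12, where 27.3% and 23.8% of all genes tested differed. The most counted, GALNT6, had log2 fold changes of -0.10 and -0.02 against parental cells (edgeR adjusted p = 0.0942 and 0.819). The largest change at any size was in GALNT5, at 0.70 and 0.88 (edgeR adjusted p = 2.79e-10 and 1.95e-12).

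Enzymes that build and branch the sugar cores numbered 7, of which 6 were tested. GCNT1, which makes the core 2 branch, was called lower in both lines (log2 -1.56 and -1.65, edgeR adjusted p = 2.42e-16 and 7.96e-17). GCNT3, the mucin-type branching enzyme, was called higher in R1 (log2 1.54, edgeR adjusted p = 4.02e-18) and was higher in R2 by 1.22 (edgeR adjusted p = 8.12e-16). In CPM, GCNT1 went from 71.3 in parental cells to 24.3 and 22.7, and GCNT3 from 51.2 to 149 and 119. The list medians were -0.09 and -0.04.

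Of 14 enzymes that cap mucin sugars with sialic acid, fucose or sulphate or extend them, 12 were tested. In R1 3 were called higher and in R2 4, against 3.24% and 2.63% of all genes, and the list medians were 0.48 and 0.19. At any size 6 were higher and 2 lower in R1, against 14% and 13.4% of all genes. In R2 5 were higher and 1 lower, against 12.3% and 11.6% of all genes. The summed level of the list was 217 to 232 CPM in parental libraries, 223 to 238 in R1 and 218 to 232 in R2. ST6GALNAC1, which makes the sialyl-Tn sugar, was at 51.9 ± 0.614 CPM in parental cells, 25.5 ± 0.499 in R1 and 21.4 ± 0.280 in R2 (SD, n = 3), and the lines did not overlap. It was lower by log2 fold changes of -1.02 and -1.28 (edgeR adjusted p = 9.97e-13 and 1.38e-14). The other gene lower in R1 was ST6GALNAC2, at 2.06 CPM in parental cells and 1.04 in R1 (edgeR adjusted p = 0.00382). The sialyltransferase ST6GALNAC4 was higher by log2 fold changes of 2.53 and 2.27, and ST6GALNAC3 was called in R2 at 2.09. ST3GAL1, which caps the core 1 sugar, had 1 count in the parental libraries, 19 in those of R1 and 91 in those of R2. The ratios to parental cells were 19.6 (95% counting interval 3.12 to 816) and 93.9 (16.4 to 3750), and ST3GAL1 was also called higher in R2 than in R1 (log2 2.24, edgeR adjusted p = 0.000132). ST3GAL4 had 3 counts in the parental libraries and 60 in each resistant line, ratios of 20.7 (6.74 to 103) and 20.6 (6.73 to 102.9).

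Proteins that fold, cross-link or accompany mucus were counted from a list of 13, of which 9 were tested. AGR3 was called lower in both lines (log2 -4.69 and -3.64) and AGR2, a disulphide isomerase needed for MUC2 folding, was called lower in R1 (log2 -1.70) and was lower at any size in R2 (log2 -1.35). At any size 3 were lower in R1, and 2 were higher and 3 lower in R2, against 27.3% and 23.8% of all genes that differed. The list medians were -0.62 and -0.14. ZG16, CLCA1 and TFF2 had 0 counts in all 9 libraries.

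Of 18 transcription factors of mucin-producing cells, 16 were tested, and 9 were lower and 1 higher in R1 at any size, and 7 lower and 1 higher in R2. Of all genes tested 13.4% were lower and 14% higher in R1, and 11.6% lower and 12.3% higher in R2. ATOH1, which drives the secretory fate of the intestine, had 95 counts in the parental libraries and 0 in either resistant line, at least 30.6-fold lower in R1 and at least 30.7-fold lower in R2 (edgeR adjusted p = 2.64e-08 and 2.59e-08). CREB3L1 was called lower (log2 -2.33 and -3.59). KLF4, a goblet cell factor, was the gene that was higher, by 0.81 and 1.11 on the log2 scale. CDX2, a factor of intestinal identity and the most counted of the list, had log2 fold changes of -0.44 and -0.54.

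Goblet cell markers, a list that shares genes with those above and holds MUC2 itself, summed to between 686 and 699 CPM in the parental libraries. They summed to 218 to 230 CPM in R1 and 282 to 308 CPM in R2, and AGR2 was the most counted. Of 10 tested, 4 were called lower in R1 and 3 in R2, against 1.91% and 2.19% of all genes. At any size 5 were lower in R1 and 5 in R2, against 13.4% and 11.6% of all genes. REG4 was at 101 CPM in parental cells, 14.8 in R1 and 32.0 in R2. ITLN1 had 46 counts in the parental libraries and 0 in either resistant line. Others were higher at any size, MUC2 in R1 (14% of all genes) and 2 genes in R2 (12.3% of all genes). These were SPINK4, at 4.71 ± 0.424 CPM in parental cells and 8.19 ± 0.911 in R2, and the mucus protein gene FCGBP, at 5.97 ± 1.24 and 9.30 ± 0.868 (SD, n = 3), without overlap (edgeR adjusted p = 5.78e-05 and 0.000958). Of 10 gastric surface mucous cell markers, 2 were tested, and the list, which includes MUC6, summed to 0.473 to 0.578 CPM, 0.368 to 0.878 CPM and 1.80 to 2.20 CPM in the 3 lines. MUC6 was at 0, 0.353 and 1.36 CPM in parental cells, R1 and R2. TFF1, the other gene tested, was at 0.510, 0.125 and 0.458 CPM, from 25, 6 and 22 counts. GKN1, GKN2, TFF2 and CLDN18 had 0 counts in all 9 libraries, also in those of R2 where MUC5AC was high. No airway secretory marker of 6 reached the 10 counts needed for a test.

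**Figure D5:**
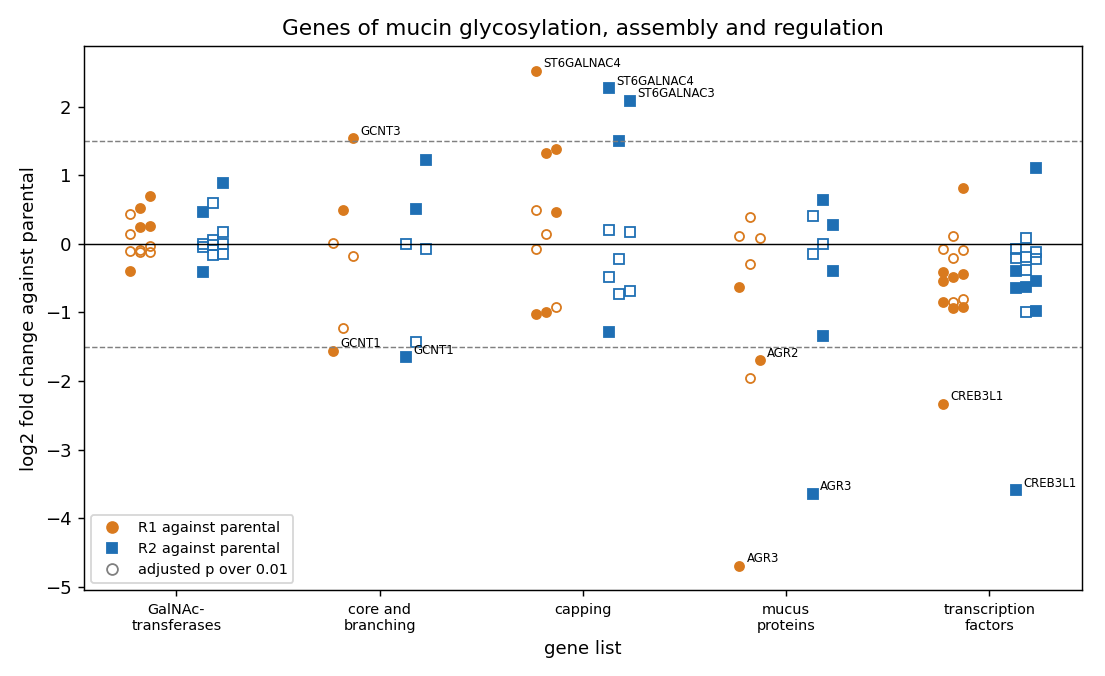
Each point is 1 tested gene of 5 lists, at its log2 fold change against parental cells in R1 (circles) or R2 (squares), with open symbols for an adjusted p over 0.01 and dashed lines at 1.5 in either direction. Genes with 3 or fewer counts in any line, such as ATOH1, ST3GAL1 and ST3GAL4, are left out, and AGR3 and CREB3L1 lie lowest.

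Proteins known to act with membrane mucins or to shed them were taken from a list of 14, of which 13 were in the count tables and tested. At any size 1 was higher and 6 lower in R1, and 4 were higher and 6 lower in R2, with medians of -0.21 and -0.17. Of all genes tested 14% were higher and 13.4% lower in R1, and 12.3% higher and 11.6% lower in R2. The most counted, the galectin gene LGALS3, whose product binds mucin sugars, had log2 fold changes of -0.21 and -0.37 (edgeR adjusted p = 1.09e-05 and 8.65e-10).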

How the data were processed

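Poly(A) RNA of the parental, R1 and R2 lines was sequenced, with 3 libraries per line. The authors used STAR with hg38 and htseq-count 0.9.1 with reverse strandedness, and deposited raw counts, 1 table per library. The annotation is not given in the sources used here. The replicates are described as technical.

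The counts were fitted with edgeR 4.0.16, which uses limma 3.58.1, under R 4.3.3. A gene entered with 10 or more counts summed over 9 libraries, TMM factors (0.984 to 1.02) were applied, and 1 quasi-likelihood model with the line as group gave the 3 comparisons. Log2 fold changes in the figures and text carry SEs derived from the test statistic. Intervals cover counting error or the spread between these libraries only. Exons and lengths came from GENCODE release 44. The test was tried on simulated data beforehand.

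The members and gene lists were chosen with earlier results of these data known. All 9 members are named. From each list the genes named were up to 4 called with the largest change, and the most counted gene where fewer than 2 were called, as well as called or overlapping neighbours. Some genes under this rule are left out of the text. MUC3A, GALNT5, ST6GALNAC1, ST6GALNAC2, SPINK4, FCGBP, TFF1, KLF4 and TOLLIP, and genes at 0 counts, were named after their values were seen. Alternatives were other normalizations, filters, thresholds and exon lengths, DESeq2 1.42.0, fits to 6 libraries, a replicate block and leaving out each library.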

Additional observations from a re-analysis of the deposited data

Results flagged for a closer look

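The effects of the resistant lines against parental cells differed from each other for 4 mucin genes, by edgeR's quasi-likelihood test of R2 against R1 with an adjusted p of at most 0.01. The difference in log2 fold change was 3.88 for MUC5AC, 0.76 for MUC5B, -0.87 for MUC13 and -1.18 for MUC1. MUC5AC was higher in R2 by 3.74 and had -0.13 in R1. MUC5B was higher and MUC13 lower in both lines, with the larger change in R2. MUC1 was higher in R1 by 1.13 and had -0.04 in R2, with 8 to 32 counts in a library. Groups of 3 libraries were too small to look for single libraries that stand apart.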

How the results depend on the processing

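No direction of a called difference reversed under any alternative. With the threshold on size set at 1 in place of 1.5, the members called numbered 3 in R1 against parental cells (MUC1, MUC2 and MUC12), 4 in R2 against parental cells (MUC5AC, MUC5B, MUC12 and MUC13) and 2 between the resistant lines (MUC1 and MUC5AC). Leaving out 1 library at a time gave 0, 2 to 3 and 1 members called in these comparisons, with MUC12 added without replicate 3 of R2. At any size it gave 3 to 5, 4 and 3 to 4 members, the 3 without parental replicate 1, where MUC1 and MUC2 dropped out. In DESeq2's Wald test MUC1 missed the threshold in R1 against parental cells (adjusted p = 0.0128) and between the resistant lines (0.0262). DESeq2's lfcShrink reduced its log2 fold changes to 0.72 and -0.73. MUC1 and MUC17 were not testable with at least 10 counts in every library.

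Same-numbered libraries did not pair, since their deviations from the line means correlated by -0.02 to 0.10 over 9 pairs, and a library correlated best with its own number in 6 of 18 looks. With the replicate number as a block, 0, 2 and 1 members were called and 5, 4 and 4 differed at any size, the numbers found without it.

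Per length of the longest transcript, the MUC13 level was 297, 234 and 128 CPM per kb in parental cells, R1 and R2. Per unique 50-base sequence the MUC5AC level was 1.70, 1.54 and 22.6 CPM per kb, and per unique 100-base sequence 1.34 in R1 and 19.7 in R2. The counts of MUC1, MUC2 and MUC17 limit what can be told of them.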
